A study of Mus musculus with 27 samples.

Results

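Retinal samples of 200 cells that held 43 or 50 starburst amacrine cells among 157 or 150 cone photoreceptors were compared with samples of 200 cones alone. The 6 mixture arrays (3 with 43 and 3 with 50 starburst cells) and the 3 pure cone arrays were chosen by their labels, from 27 mouse gene arrays in 9 groups of 3. The stated share of starburst cells was 21.5% in the first mixture and 25% in the second. Cones came from adult mice of the line Tg(Chrnb4-EGFP)1Gsat, in which GFP is made under the control of Chrnb4, a nicotinic receptor subunit gene. Starburst cells came from adult mice of the cross 129S6-Chat_tm1(cre)Lowl/J with Rosa26-LSL-RFP, in which Cre made from the Chat locus switches on RFP. The labels give all these arrays the same mixed background of C57BL/6J with hybrids of FVB/N and Swiss Webster, and the hybrids can carry a recessive photoreceptor degeneration mutation. Retinas were pooled (2 with GFP cones, 6 with RFP starburst cells), dissociated with papain and sorted by fluorescence into lysis buffer. The titration mixtures, which include the pure cones and the mixtures with 50 starburst cells, were sorted 3 times from different mice. Whether the mixtures with 43 starburst cells came from the same pools is not stated outright. The study asked how array values follow the amount of RNA in a cell group, and the question here was which starburst genes report a share of 21.5 to 25%.

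Starburst amacrine cells are the cholinergic interneurons of the retina. They release both acetylcholine and GABA onto direction-selective ganglion cells, and their acetylcholine is made by choline acetyltransferase (Chat) and loaded into vesicles by the vesicular acetylcholine transporter (Slc18a3). Cones are the photoreceptors of daylight vision and are recognised by their opsins and by cone forms of transducin, phosphodiesterase and arrestin. Photoreceptor genes are driven by the homeodomain factors Crx and Otx2, which bind the letters TAATCC.

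The promoters of 3 starburst markers, of Chat and of a cone gene are shown because their transcripts gave unlike readings on the same arrays, as the values that follow show. Each sequence is the 250 bases before the start site, from RefSeq on build GRCm38.p6, with every TAATCC or TATAAA on either strand in capitals. Of 6 genes looked for, 5 were found, and Calb2 was not.
Slc18a3 (vesicular acetylcholine transporter, chr14:32464851-32465100, minus strand): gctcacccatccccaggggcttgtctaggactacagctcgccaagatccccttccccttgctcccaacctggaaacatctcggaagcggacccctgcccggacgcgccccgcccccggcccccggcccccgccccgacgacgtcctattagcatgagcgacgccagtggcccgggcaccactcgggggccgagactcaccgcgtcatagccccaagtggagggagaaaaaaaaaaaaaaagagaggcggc
Chat (choline acetyltransferase, chr14:32465910-32466159, minus strand): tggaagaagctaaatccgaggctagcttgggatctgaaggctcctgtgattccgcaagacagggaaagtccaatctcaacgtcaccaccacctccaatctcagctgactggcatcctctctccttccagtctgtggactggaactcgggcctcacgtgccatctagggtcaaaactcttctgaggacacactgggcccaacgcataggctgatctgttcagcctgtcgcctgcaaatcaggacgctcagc
Slc10a4 (vesicle-associated transporter, chr5:73006654-73006903, plus strand): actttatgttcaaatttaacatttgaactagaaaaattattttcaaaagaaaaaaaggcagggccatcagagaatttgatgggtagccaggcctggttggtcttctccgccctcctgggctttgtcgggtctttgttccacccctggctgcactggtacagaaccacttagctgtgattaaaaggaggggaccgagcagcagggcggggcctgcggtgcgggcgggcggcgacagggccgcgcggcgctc
Igfbp7 (secreted IGF-binding protein, chr5:77408046-77408295, minus strand): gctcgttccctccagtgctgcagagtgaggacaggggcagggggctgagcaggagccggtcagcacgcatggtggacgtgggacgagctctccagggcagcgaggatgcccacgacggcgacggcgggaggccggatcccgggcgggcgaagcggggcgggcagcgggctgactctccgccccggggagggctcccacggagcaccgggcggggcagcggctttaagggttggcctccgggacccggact
Gnat2 (cone transducin alpha subunit, chr3:108092816-108093065, plus strand): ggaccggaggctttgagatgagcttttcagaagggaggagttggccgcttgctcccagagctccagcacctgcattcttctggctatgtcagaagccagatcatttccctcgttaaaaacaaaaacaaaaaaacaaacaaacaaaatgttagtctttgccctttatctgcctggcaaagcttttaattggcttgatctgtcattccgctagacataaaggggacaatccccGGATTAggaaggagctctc
The start sites of Slc18a3 and Chat lay 1059 bases apart on one strand, and Slc18a3 sits inside the first intron of Chat in the cholinergic gene locus. Only the Gnat2 window among these 5 held TAATCC (1 match, as its reverse complement). Windows of 250 bases before and 50 bases after the start held TAATCC in 7.16% of 27025 genes, in 3 of 137 starburst genes (2.19%) and in 16 of 81 cone genes (19.8%), where these sets were called with a log2 fold of at least 2 between the pure groups. A match describes the letters in the window and no more.

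Values were log2 expression levels summarised per probe set, and 12441 of 19301 genes passed a filter on low values. Arrays of one group correlated over these genes with Pearson r between 0.919 and 0.955 for cones, 0.932 and 0.948 for the mixtures with 43 starburst cells, and 0.939 and 0.949 for those with 50. The third array of each group stood apart. The summed linear level of 20 cone genes was 17340, 16978 and 8552 on the 3 cone arrays, 13705, 12727 and 3388 on the arrays with 43 starburst cells, and 13152, 13601 and 5486 on those with 50. So the third array was the lowest of its group each time. The rod transducin gene Gnat1 read 8.11, 8.28 and 10.41 on the cone arrays, with the third array the highest there, and the third mixture arrays were likewise the highest of their groups (8.86 and 9.26). Rod genes did not all share this order. Sag was lowest on the third array of cones (10.95), of 43 starburst cells (9.70) and of 50 (10.22). The summed rod level was highest on the third array for cones (7759) and with 50 (4467), but lowest there with 43 (3160). The part of these arrays in the results below was not tested as a cause, and counts without them are given beside the results. The summed level of the starburst list, 15 genes, was 337 to 398 on cone arrays, 2069 to 2715 with 43 starburst cells, 2398 to 2792 with 50, and 4283 to 4462 on pure starburst arrays. Groups of pure cells and mixtures did not overlap on that sum, whereas the 2 mixtures overlapped each other.

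**Figure D1:**
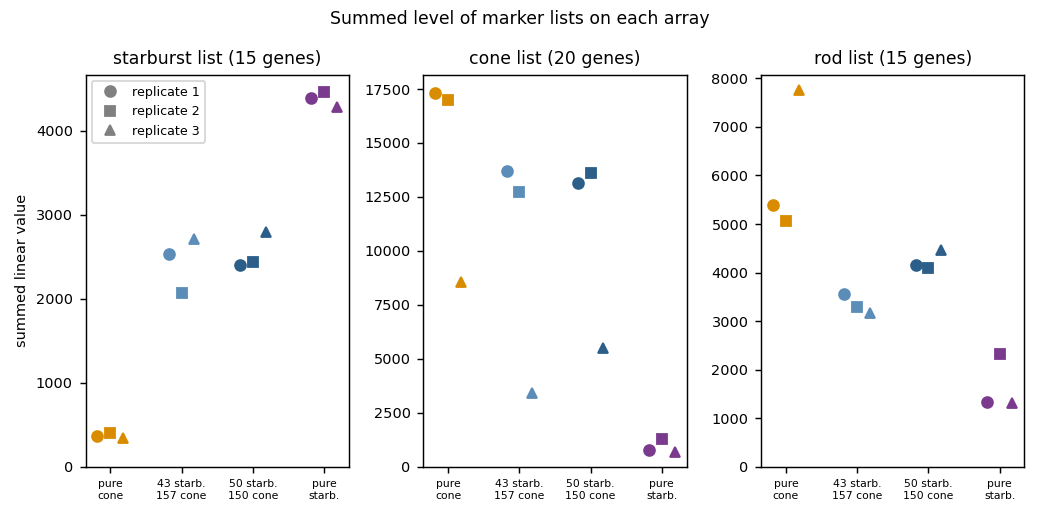
Summed linear level of the starburst, cone and rod gene lists on each array of pure cones, the mixtures with 43 and 50 starburst cells and pure starburst cells, with 1 point per array. The starburst sums of the mixtures lie between those of the pure groups (2069 to 2792), and the third arrays (triangles) hold the lowest cone sums of the cone and mixture groups (8552, 3388 and 5486).

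With 43 to 50 starburst cells present, 160 genes rose and 51 fell against pure cones. This is 1.7% of the 12441 genes tested (1.29% higher and 0.41% lower), at a limma adjusted p under 0.05 and a log2 fold of at least 1. In these bulk samples, fewer cells of a type and less RNA per cell cannot be told apart. The 4 genes with the largest rises were Slc18a3, Calb2, Slc10a4 and Igfbp7, and 128 of the 160 genes that rose had all 6 mixture arrays above all 3 cone arrays. Over all genes tested, 3.4% had all 6 mixture arrays above and 2.2% had all 6 below. Without the third array of each group, 127 genes rose and 53 fell. The count of genes that fell was the less firm, since 94 fell when only the third cone array was left out and 12 when the spread was estimated from these 9 arrays alone (92 then rose). In simulated data with 3 arrays a group, a true log2 fold of 1 was called in 32% of the changed genes and one of 2 in 98%. The simulated noise was independent between arrays and genes, so traits shared by the third arrays were left out. These percentages therefore need not hold for the real arrays. Each mixture alone gave a like count for rises: 154 genes rose (1.24%) and 20 fell (0.161%) with 50 starburst cells, or 1.4% in all. With 43, 127 rose (1.02%) and 65 fell (0.522%), or 1.54% in all. Both were set against the same 3 cone arrays.

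Slc18a3, which loads acetylcholine into vesicles, read 3.56, 3.10 and 2.81 on the cone arrays, 10.12, 9.16 and 9.97 with 43 starburst cells, 9.43, 9.37 and 9.49 with 50, and 10.62, 10.77 and 10.59 in pure starburst cells. All mixture arrays were far above the cone arrays and below the pure starburst arrays, and the 2 mixtures overlapped. The log2 fold over cones was 6.43 ± 0.20 (SE, adjusted p = 5.9e-16), beside 7.50 for pure starburst cells over the same cones. Calb2, the calcium-binding protein calretinin, read 3.01, 2.83 and 2.72 in cones, 8.65, 8.66 and 9.14 with 43 starburst cells, 9.20, 9.28 and 9.51 with 50, and 9.99, 9.67 and 9.68 in pure starburst cells. Its mixtures did not overlap each other, with every array of 50 starburst cells above every array of 43. The log2 fold over cones was 6.22 ± 0.17 (SE, adjusted p = 6.4e-17).

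Slc10a4, a transporter-like protein of cholinergic and monoaminergic synaptic vesicles, read 2.97, 3.06 and 2.72 in cones, 7.75, 8.02 and 7.91 with 43 starburst cells, 8.07, 8.05 and 8.33 with 50, and 8.09, 8.11 and 8.51 in pure starburst cells. The mixtures were close to the pure starburst arrays, and those with 50 starburst cells overlapped them. Its log2 fold over cones was 5.10 ± 0.17 (SE, adjusted p = 2e-15), beside 5.32 for pure starburst cells. Igfbp7, a secreted IGF-binding protein, read 3.39, 3.29 and 6.39 in cones, 8.27, 8.48 and 8.72 with 43 starburst cells, 8.47, 8.33 and 8.76 with 50, and 9.44, 9.51 and 9.66 in pure starburst cells. The third cone array was high for this gene yet stayed below every mixture array. The log2 fold was 4.15 ± 0.46 (SE, adjusted p = 3.7e-06) and kept its call in all 18 alternatives, where it lay between 3.61 and 5.17.

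**Figure D2:**
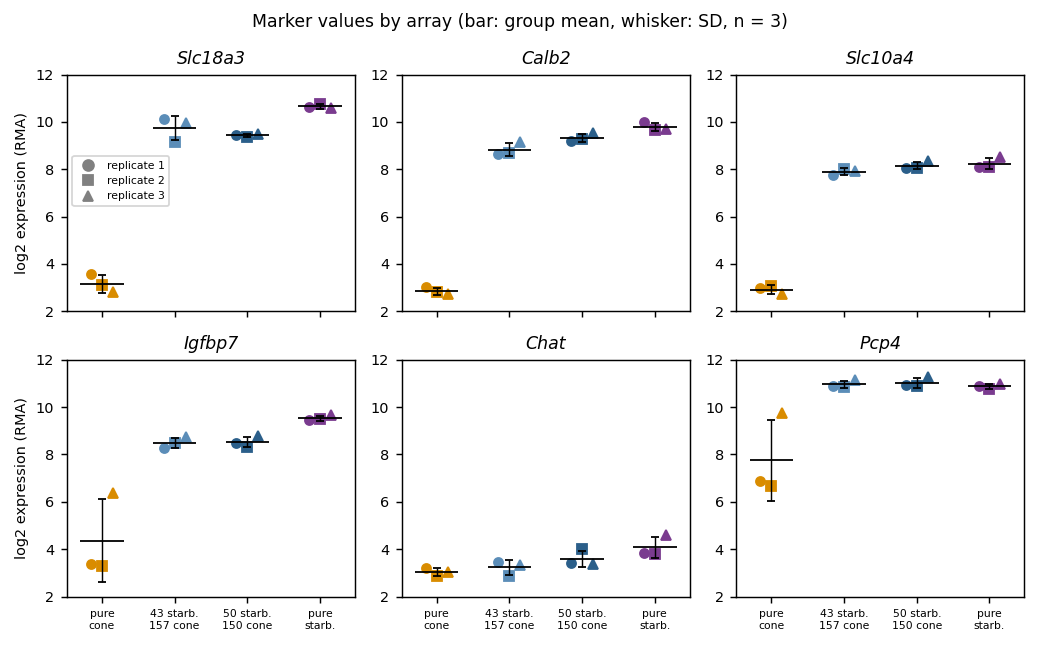
Log2 expression of 4 starburst markers, Chat and Pcp4 on each array of pure cones, the mixtures with 43 and 50 starburst cells and pure starburst cells, with the group mean (bar) and SD (whisker, n = 3). Slc18a3, Calb2, Slc10a4 and Igfbp7 are well above the cone arrays in both mixtures, while Chat stays between 2.88 and 3.99 there.

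Chat, the gene whose locus drove Cre in the starburst line, did not report the starburst cells. It read 3.21, 2.87 and 3.05 in cones, 3.46, 2.88 and 3.34 with 43 starburst cells, 3.4, 3.99 and 3.38 with 50, and 3.85, 3.81 and 4.58 in pure starburst cells. The mixtures overlapped the cone arrays, with a log2 fold of 0.36 ± 0.19 (SE, adjusted p = 0.444), and even pure starburst cells were only 1.04 above cones. Of the cholinergic list, 2 of 12 tested genes rose (Slc18a3 and Slc10a4) and 0 fell, beside 1.29% and 0.41% of all genes. The median log2 fold of the list was 0.05 against 0.01 over all genes tested. The choline transporter Slc5a7 had a log2 fold of 0.13 (adjusted p = 0.885) and acetylcholinesterase, Ache, one of -0.63 (adjusted p = 0.522). Chrnb4, whose regulatory sequence drove GFP in the cone line, had a log2 fold of -0.14 ± 0.38 (SE, adjusted p = 0.929), and its mixture and cone arrays overlapped.

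Of the starburst list, 6 of 15 tested genes rose (1.29% of all genes) and 0 fell: the 4 markers above and the transcription factors Sox2 and Isl1. Sox2, a progenitor factor that starburst cells keep, read 2.44, 2.31 and 2.68 in cones, 6.09, 6.72 and 6.20 with 43 starburst cells, and 5.97, 6.55 and 6.61 with 50. Isl1, a homeodomain factor of starburst, ON bipolar and ganglion cells, read 3.54, 3.66 and 5.82 in cones, 7.31, 6.74 and 7.59 with 43, and 7.84, 8.01 and 8.54 with 50. Both genes separated all mixture arrays from all cone arrays, with the third cone array again the highest for Isl1. Their log2 folds were 3.88 ± 0.17 and 3.33 ± 0.34 (SE, adjusted p = 7.9e-13 and 8.9e-07). The other 9 list members did not pass the test, among them Megf10, a mosaic spacing receptor (0.22, adjusted p = 0.623), Fezf1 (0.18, adjusted p = 0.825) and Kcnc2, a fast potassium channel (0.79, adjusted p = 0.0273, under the fold threshold).

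General amacrine and GABA genes rose with the starburst cells in part. Of 16 tested members of that list 5 rose (Gad1, Tfap2b, Pax6, Calb1 and Calb2) and 1 fell (Meis2), with Pax6 and Meis2 named after their values were seen. Of all genes, 1.29% rose and 0.41% fell. Gad1, which makes GABA, read 4.98, 4.45 and 6.17 in cones, 7.43, 6.79 and 7.43 with 43 starburst cells, and 7.42, 7.25 and 7.33 with 50. The groups did not overlap, and the log2 fold was 2.07 ± 0.24 (SE, adjusted p = 8.5e-06). Tfap2b, an amacrine transcription factor, had a log2 fold of 1.55 ± 0.21 (SE, adjusted p = 4.3e-05), with mixture arrays from 4.75 to 5.80 against 3.29 to 3.81 in cones. Meis2, a homeodomain factor, had a log2 fold of -1.26 (adjusted p = 0.0091, range 0.000369 to 0.101 over its alternatives), and its call was lost without the first cone array (0.101), without the second (0.0567) and with these 9 arrays alone (0.0958). Pax6 had a log2 fold of 1.11 and overlapping groups, and its call was lost without the second cone array (adjusted p = 0.127). Slc32a1, the vesicular GABA transporter, was higher by 0.70 (adjusted p = 0.0089), which is under the fold threshold. Gad2 had a log2 fold of -0.09 (adjusted p = 0.919) and was dim in both mixtures and cones.

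Calb1, the calcium-binding protein calbindin, read 1.75, 2.09 and 3.66 in cones, 5.35, 5.11 and 5.66 with 43 starburst cells, and 5.41, 5.36 and 6.30 with 50, so that the mixtures and the cones were apart. Of 19 calcium-binding genes tested, 3 rose (Calb1, Calb2 and Cabp1), beside 1.29% of all genes. Cabp1 had a log2 fold of 1.03 with adjusted p = 0.0152, which ranged from 0.00292 to 0.0999 over its alternatives and missed the threshold without the first cone array (0.0563). Among 14 potassium channel genes, Kcnmb4, the beta4 subunit of large-conductance calcium-activated channels, was the 1 that rose. It read 4.0, 3.35 and 4.62 in cones, 5.95, 7.11 and 6.30 with 43 starburst cells and 7.29, 7.42 and 7.70 with 50. The mixtures did not overlap each other or the cones.

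Of 11 GABA and glycine receptor genes, 1 rose, Gabrd, the delta subunit of extrasynaptic GABA-A receptors. It read 4.38, 4.43 and 3.47 in cones, 6.66, 6.03 and 6.77 with 43 starburst cells, and 6.45, 6.68 and 6.84 with 50, without overlap with cones, and had a log2 fold of 2.48 ± 0.21 (SE, adjusted p = 7.2e-08). With 50 starburst cells alone, 2 of the 11 rose, Gabrd and Gabrb1 (log2 fold 1.22 for Gabrb1, limma adjusted p = 0.0246). Of 11 glutamate receptor genes, 1 rose, Grm8, a presynaptic metabotropic receptor, with a log2 fold of 1.30 ± 0.24 (SE, adjusted p = 0.0024). Its adjusted p was 0.107 without the third arrays of the groups and ranged from 0.000138 to 0.107 over its alternatives. Of 8 sodium and calcium channel genes and 28 mosaic and guidance genes, 0 were called in either direction. Over all genes tested, 1.29% rose and 0.41% fell. Cdh6, a cadherin, and Megf11, a mosaic spacing receptor, were higher by 0.81 and 0.69 with adjusted p = 0.0379 and 0.0216, under the fold threshold.

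Of 16 neuropeptide genes tested, 3 rose (Cck, Npy and Scg2, beside 1.29% of all genes) and 0 fell, and the median log2 fold was 0.16. Cck, the cholecystokinin precursor, read 3.26, 2.95 and 4.71 in cones, 7.33, 7.01 and 7.44 with 43 starburst cells, and 6.10, 7.79 and 7.80 with 50, where the first array was the lowest of the mixtures but above all cones. Npy, the neuropeptide Y precursor, read 5.17, 5.21 and 5.39 in cones, 7.73, 7.59 and 8.74 with 43, and 8.30, 8.57 and 9.04 with 50. Neither gene overlapped with cones, and the log2 folds were 3.61 ± 0.35 and 3.07 ± 0.21 (SE, adjusted p = 5.6e-07 and 1.4e-09). Scg2, secretogranin II of dense-core vesicles, rose by 1.64 ± 0.23 (SE, adjusted p = 0.00011). Tac1, the substance P precursor, ran from 3.45 to 7.46 over the mixture arrays and had a log2 fold of -0.92 (adjusted p = 0.636). Of 9 genes of the IGF system, Igfbp6 and Igfbp7 rose; Igfbp6 read 3.72, 3.51 and 4.0 in cones, 6.59, 6.75 and 7.12 with 43 starburst cells, and 6.87, 7.67 and 8.19 with 50, with a log2 fold of 3.46 ± 0.33 (SE, adjusted p = 5.1e-07).

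The other large rises belonged to genes outside the classic starburst list. Pcp4, a small calmodulin-binding protein, read 6.90, 6.66 and 9.73 in cones, 10.89, 10.85 and 11.13 with 43 starburst cells, 10.92, 10.89 and 11.28 with 50, and 10.91, 10.78 and 10.96 in pure starburst cells. The mixtures were as high as pure starburst cells, and the third cone array was nearer to the mixtures than to the other cones. Sparcl1, a secreted matrix protein, read 6.63, 6.37 and 6.76 in cones, 9.92, 9.64 and 9.96 with 43, and 10.12, 10.20 and 10.31 with 50. Each step was clear of its neighbours, and the log2 fold was 3.44 ± 0.16 (SE, adjusted p = 2.2e-12).

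Gsto1, a glutathione transferase of the omega class, read 4.15, 3.26 and 3.36 in cones, 7.28, 7.41 and 7.42 with 43 starburst cells, 7.84, 8.20 and 7.63 with 50, and 9.28, 9.12 and 9.09 in pure starburst cells. Its 4 groups did not overlap and kept the order of the stated shares. Cmtm8, a MARVEL-domain membrane protein, read 3.17, 2.94 and 4.66 in cones, 7.73, 7.76 and 7.95 with 43, and 7.55, 7.90 and 7.39 with 50, so that the mixtures overlapped each other but not the cones. The log2 folds were 4.04 ± 0.19 and 4.12 ± 0.23 (SE, adjusted p = 2.3e-12 and 5.3e-11). Ube2ql1, a ubiquitin-conjugating enzyme-like protein (4.07), Homer2, a postsynaptic scaffold (3.74), the metallothionein Mt2 (3.61), Samd9l (3.22) and the prostaglandin-degrading enzyme Hpgd (3.02) also rose without overlap between mixtures and cones.

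**Figure D3:**
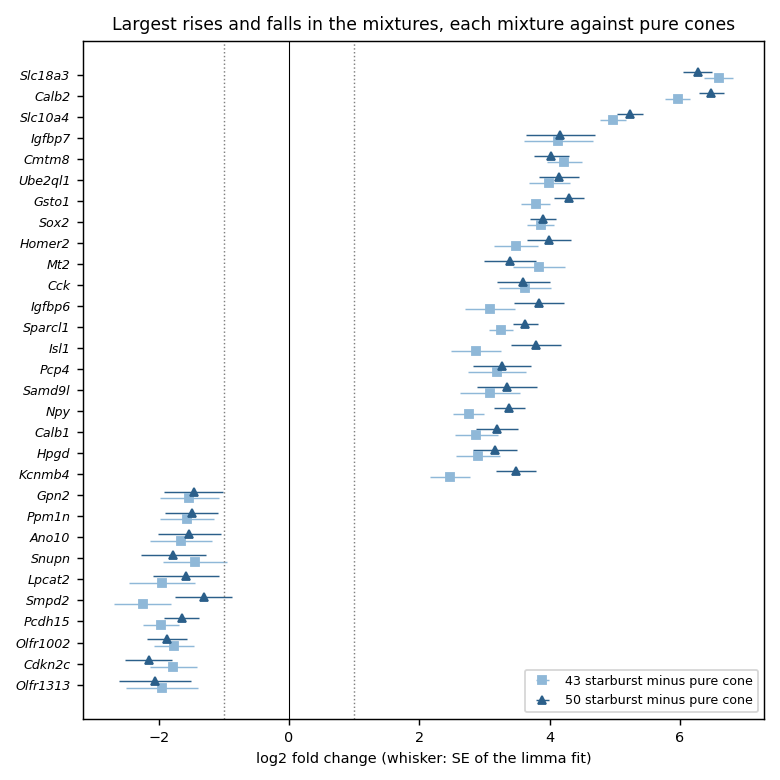
Log2 fold change of each mixture against the same 3 pure cone arrays, with the SE of the limma fit, for the 20 genes with the largest rises and the 10 with the largest falls among called genes whose groups did not overlap. Rises reach 6.59 for Slc18a3, and falls reach -2.25 for Smpd2, both with 43 starburst cells.

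Falls were smaller than rises. With 78.5% or 75% of cells still cones, a gene that followed the cone share would fall by less than the fold threshold. Pcdh15, a protocadherin of photoreceptors and hair cells, read 5.19, 5.26 and 3.79 in cones, 2.75, 2.73 and 2.86 with 43 starburst cells, 3.5, 3.23 and 2.57 with 50, and 2.46, 2.35 and 2.43 in pure starburst cells. All mixture arrays were below all cone arrays, and the log2 fold was -1.81 ± 0.23 (SE, adjusted p = 3e-05), or -0.84 when its probe sets were averaged. With these 9 arrays alone its adjusted p was 0.0504, the highest over its alternatives (lowest 8.48e-09). Cdkn2c, a cyclin-dependent kinase inhibitor, read 4.42, 3.73 and 5.94 in cones, 2.94, 2.60 and 3.22 with 43, and 2.55, 2.96 and 2.13 with 50, and fell by 1.97 on the log2 scale (adjusted p = 0.00046, and 0.0989 with these 9 arrays alone). Smpd2, a sphingomyelinase, read 6.20, 7.02 and 6.02 in cones, 4.57, 4.20 and 3.73 with 43, and 5.31, 5.48 and 4.51 with 50. The fall of 1.78 on the log2 scale had adjusted p = 0.0087, which ranged from 0.00253 to 0.0857 and missed the threshold without the second cone array.

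Several falls lost their call when 1 cone array was left out. The odorant receptor Olfr1313 read 6.10, 3.19 and 3.29 in cones and at most 2.44 in the mixtures, and without the first cone array its fold went from -2.0 to -1.05 with adjusted p = 0.202. Ano10 read 3.63, 3.15 and 5.52 in cones, and without the third cone array its fold went from -1.60 to -0.89 with adjusted p = 0.261. Snupn, Gpn2, Lpcat2 and Ppm1n lost the call without the first cone array (adjusted p = 0.167, 0.0943, 0.153 and 0.0849) and also without the second (0.143, 0.176, 0.0777 and 0.0696). Their folds stayed near those of all arrays, at -1.47, -1.55, -1.51 and -1.43 without the first cone array and -1.56, -1.35, -1.83 and -1.51 without the second. Over all alternatives the highest adjusted p of these 4 genes was 0.29. Olfr1002 kept its call in all 17 alternatives, with 4.55, 3.21 and 2.94 in cones against 1.61 to 2.1 in the mixtures. Of the 51 genes that fell, 5 were odorant or vomeronasal receptors, and in 8 the mixtures were under the level of the low-value filter. With the replicate number as a block, Ano10 and Gpn2 lost the call (adjusted p = 0.0566 and 0.0747). The mean levels of Snupn were 4.68 and 4.35 with 43 and 50 starburst cells, below pure cones (6.12) and pure starburst cells (5.38). Likewise below both were Gpn2 (4.27 and 4.34 against 5.81 and 5.07) and Ano10 (2.44 and 2.57 against 4.10 and 3.16). So was Olfr1002 (1.80 and 1.69 against 3.57 and 2.08). Lpcat2, Ppm1n and Olfr1313 lay between the pure groups. A level below both pure groups reports no share of starburst cells, and its cause was not tested.

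Of 18 cone genes tested, 0 rose and 0 fell, all 18 had a fold below 0, and the median log2 fold was -0.74. At the stated cone shares of 78.5% and 75%, a gene that followed the share would miss the fold threshold. The count of 0 thus does not show that cone genes stayed unchanged. Grk1, an opsin kinase of photoreceptors, lay just short of the threshold, at -1.03 (adjusted p = 0.0514), and passed in 7 of 18 alternatives (range 0.0163 to 0.265). With 43 starburst cells alone it was the 1 of the 18 genes that fell (-1.48, adjusted p = 0.0154, beside 0.522% of all genes), and with 50 alone 0 did. Grk1 was named after its values were seen. Opn1mw, the medium-wavelength opsin, read 11.13, 11.34 and 10.18 in cones, 11.01, 11.04 and 9.10 with 43 starburst cells, and 10.78, 10.95 and 9.53 with 50. Gnat2, cone transducin, read 11.22, 11.12 and 9.67 in cones, 10.62, 10.34 and 7.90 with 43, and 10.72, 10.91 and 8.92 with 50. For both genes the third array of each group was the lowest, and the spread within a group exceeded the difference between groups. Within each of the 3 replicate numbers, both genes and the summed level of the cone list were lower in either mixture than on the cone array of that number. For 43 starburst cells this matching rests on the number alone, since shared pools are not stated outright. Without pairing, the limma log2 folds of Opn1mw and Gnat2 were -0.48 ± 0.51 and -0.77 ± 0.72 (SE, adjusted p = 0.762 and 0.717). The short-wavelength opsin Opn1sw (-0.59), cone arrestin Arr3 (-0.71), the phosphodiesterase subunit Pde6c (-0.93) and the transducin subunit Gnb3 (-0.90) had adjusted p of 0.65 to 0.839.

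Of 28 genes shared by rods and cones that were tested, 2 fell, Cplx4 and Rpgrip1 (0.41% of all genes fell), 0 rose, 1 had a fold above 0, and the median log2 fold was -0.70. With 43 starburst cells alone 6 of the 28 fell (0.522% of all genes), and with 50 alone 0 did (0.161%). The limit set by the fold threshold for cone genes holds here too. Cplx4, a complexin of photoreceptor ribbon synapses, read 8.92, 8.65 and 8.54 in cones, 7.61, 7.48 and 7.15 with 43 starburst cells, and 8.01, 8.16 and 7.44 with 50. All mixture arrays were below all cone arrays, and the fold was -1.06 ± 0.25 (SE, adjusted p = 0.0184), with adjusted p from 0.00698 to 0.136 over its alternatives (0.103 without the first cone array). Rpgrip1, a ciliary protein, had a fold of -1.18 (adjusted p = 0.0061, and 0.0557 without the first cone array, range 0.00198 to 0.199). Of 14 rod genes tested, 0 were called (1 fell with 43 starburst cells alone) and the median was -0.51; their summed level ran from 5060 to 7759 on cone arrays, 3160 to 3560 with 43 starburst cells and 4096 to 4467 with 50. Rod sums on pure starburst arrays were 1303 to 2313.

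Markers of other retinal cells gave calls in the bipolar, horizontal and Müller glia lists. Over all genes tested, 1.29% rose and 0.41% fell. Of 16 bipolar genes, Isl1 rose and Scgn, the calcium sensor secretagogin, fell (-1.86, adjusted p = 0.0365, 0.202 without the third cone array, range 0.00969 to 0.233). Of 7 horizontal cell genes, Calb1 and Atp1b1, a sodium pump subunit (1.61 ± 0.22, SE, adjusted p = 7.6e-05), rose. Of 17 Müller glia genes, Gpr37, a G-protein-coupled receptor, rose and 0 fell. Gpr37 read 4.13, 4.38 and 4.47 in cones, 6.06, 5.72 and 6.08 with 43 starburst cells, 6.98, 6.93 and 6.92 with 50, and 7.91, 7.74 and 7.60 in pure starburst cells. Its 4 groups were fully apart and in the order of the stated shares. The summed Müller glia level was 768 to 1040 on cone arrays, 663 to 1356 with 43 starburst cells and 722 to 1788 with 50, where the first array was the highest in both mixtures. Of 9 ganglion cell, 10 other amacrine, 4 astrocyte, 6 microglia, 3 pigment epithelium and 4 vascular genes tested, 0 were called. Their part in the other results was not tested.

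Genes of general cell functions gave no calls. Of 10 housekeeping, 19 ribosomal protein, 16 glycolysis, 29 oxidative phosphorylation, 12 heat shock and 19 immediate early genes tested, 0 rose or fell past the threshold, and the medians lay between -0.06 and 0.16. Over all genes tested 1.7% were called, and at that share lists of this size would hold few calls. Ppia of the housekeeping list was higher on every mixture array than on the cone arrays, under the fold threshold (values below). Rps14, a ribosomal protein, read 11.35, 11.32 and 11.30 in cones and 11.27 to 11.51 in the mixtures, with a log2 fold of 0.08 ± 0.09 (SE, adjusted p = 0.799). Aldoa, a glycolytic enzyme, read 10.66, 10.47 and 10.27 in cones and 10.28 to 10.67 in the mixtures (0.06 ± 0.12, SE, adjusted p = 0.901). Of 28 synaptic vesicle and SNARE genes, only Cplx4 was called.

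To ask what share each gene reported, a position was computed on the linear scale, with 0% at the mean of the pure cone arrays and 100% at the mean of the pure starburst arrays. Starburst genes were the 175 genes at least 2 higher in pure starburst cells on the log2 scale and called; cone genes were the 101 that met the same rule the other way. The pure groups themselves differed in 8.42% of genes (5.79% higher and 2.64% lower in starburst cells). That contrast shares the 3 cone arrays with the mixture comparison, so the counts that follow are descriptions. In the mixtures, 123 of the 175 starburst genes rose and 0 fell (median log2 fold 1.48), with all 6 mixture arrays above all cones in 112. Of the 101 cone genes 19 fell and 0 rose (median -0.90). At the edge of the starburst rule, Rit2, Rgs2 and Sptssb lay just inside (log2 fold 2.0, 2.01 and 2.01) and Dtd1, Atp1b3 and Cox6a2 just outside (2.0, all under the threshold before rounding).

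A starburst list from a contrast that leaves out the cone and mixture means gave a like count. The spread and the low-value filter behind that list still came from all 27 arrays. Arc-EGFP amacrine cells, sorted from the line Tg(Arc-EGFP)194Gsat/Mmcd, served as the other side, and 47 genes were called at least 2 higher in pure starburst cells than in them (1.39% of genes were called higher at a log2 fold of 1 or more). In the mixtures 30 of the 47 rose against cones (background 1.29%) and 0 fell, the median log2 fold was 1.56, and 31 had all mixture arrays above all cone arrays (background 3.4%). With 50 starburst cells 30 of the 47 rose, and with 43 it was 28. Of the 47 genes 35 were also among the 175, which is 74.5% of the first list and 20% of the second. The 2 counts are therefore not independent, and that of the 47 is a description too.

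Starburst genes read above the stated share on every mixture array. The median position of the 175 genes was 31.7%, 27.7% and 37.9% with 43 starburst cells, where 21.5% was stated. It was 29.1%, 41.2% and 49.0% with 50, where 25% was stated. The means were 32.4% ± 5.2 and 39.8% ± 10 (SD, n = 3 each). The position exceeded the share by 12.9 ± 7.4 points over the 6 arrays (SD, exact sign-flip test, two-sided, p = 0.0312, the smallest it can give). Averaged by replicate number, the 3 values gave p = 0.25 in the exact sign-flip test, also the smallest possible. All 6 positions were scaled on the same pure cone and pure starburst means. Both p-values thus reflect scatter among the mixture arrays and leave out any error in those means. The third array was the highest in both mixtures, and without the third array of each group the means were 30.3% and 36.2%. Genes of the list defined against Arc cells, limited to those also higher in pure starburst cells than in cones, gave 30.3% and 37.8%. That limit used the cone arrays, and 35 of the 47 listed genes were among the 175. On the log2 scale in place of the linear scale the means were 56.7% and 64%, so the position depends on the scale. After quantile normalization the mean with 43 starburst cells was 45.6%.

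The neighbouring mixtures place these values. With 17 starburst cells among 183 cones (8.5%), the position was 20.9%, 15.5% and 32.7%, and with 100 among 100 (50%) it was 57.9%, 61.5% and 66.1%. The third array with 17 starburst cells therefore read as high as arrays with 43 or 50, and the arrays of 100 were above all 6. The median position of the cone genes was -27.3%, -12.1% and 46.8% on the cone arrays and -5.5%, 8.34% and 71.4% with 17 starburst cells. It was 41.4%, 40.0% and 86.8% with 43 starburst cells, 48.6%, 26.8% and 77.9% with 50, and 57.2%, 63.3% and 64.1% with 100. The first and second arrays rose from cones through 17 starburst cells to 43 or 50 and then to 100, and the third arrays of the first 4 of these groups lay higher than the others of their group. The group means were 2.47%, 24.8%, 56.1%, 51.1% and 61.6% in that order. The third array of pure cones thus lay as far along as the first and second mixture arrays, and the SD within a group (25.7 to 39.2 points) was larger than the step in the stated share, for cones and for both mixtures.

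**Figure D4:**
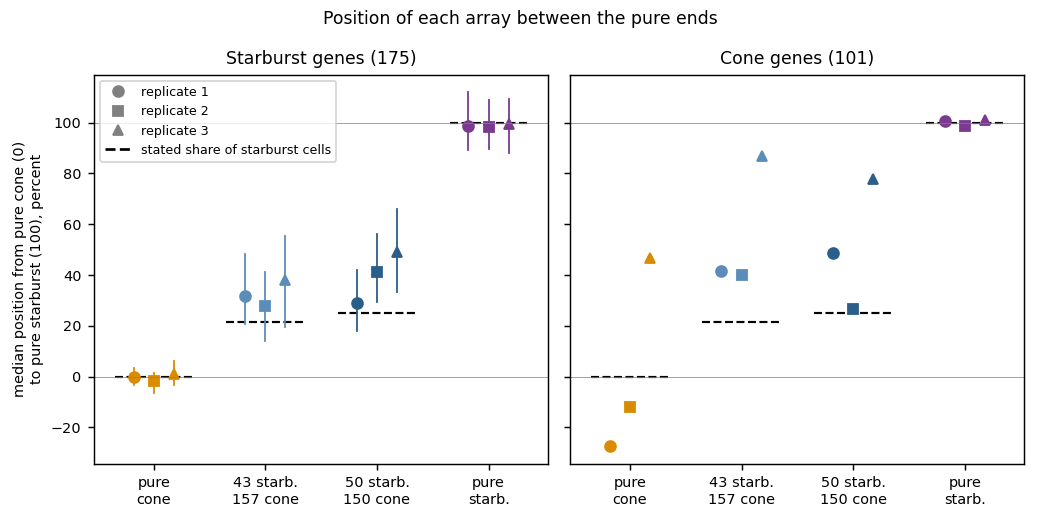
Median position of each array between pure cones (0%) and pure starburst cells (100%) on the linear scale, over 175 starburst genes (left, with the quartiles over genes) and 101 cone genes (right), with the stated share of starburst cells as a dashed line. All 6 mixture arrays lie above the line for starburst genes (27.7% to 49.0%), and the third arrays lie apart for cone genes (46.8%, 86.8% and 77.9%).

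Gene by gene, the positions of most starburst genes lay on both sides of the stated shares or wholly above them. Of the 175 genes, 116 had positions on both sides of the span from 21.5% to 25%, 46 had all 6 positions above it, 1 had all 6 below it, and 12 had some other order. The mean position lay between 15% and 35% in 66 genes, under 15% in 12 and over 35% in 97, of which 6 were over 75%. These bounds were chosen after values were seen. The median gene had a mean position of 37.0% (quartiles 27.5% and 47.4%) and an SD over the 6 arrays of 17.2 points, which is larger than the gap between the 2 stated shares. Among the 51 genes at least 3 higher in pure starburst cells, 49 rose, the mean position lay between 15% and 35% in 13, and the median was 43.8% with an SD of 15.0 points.

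P2rx2, Pomc, Ina and Kcnmb4 had the lowest positions among the 49 of the 51 genes that rose, and Grm8 lies outside the 51. P2rx2, an ATP-gated channel subunit, read 2.33, 2.72 and 2.83 in cones, 4.47, 4.44 and 3.42 with 43 starburst cells, 4.24, 4.23 and 4.33 with 50, and 5.73, 5.93 and 5.80 in pure starburst cells. Its position was 24.8% ± 8.3 (SD, n = 6), with 1 low array (8.92%) and the others up to 31.7%. Grm8 gave 24.9% ± 5.9 (17.2% to 33.7%), Pomc, the precursor of several peptide hormones, 23.1% ± 10.9, Ina, the neurofilament protein alpha-internexin, 25.3% ± 12.7, and Kcnmb4 28.2% ± 13.2. Pde4d, a cyclic AMP phosphodiesterase, gave 23.3% ± 7.2 and Frmd7 22.3% ± 11.0, both outside the 51 and named after their values were seen. Ina read 5.57, 6.21 and 5.52 with 43 and 6.79, 6.82 and 6.17 with 50, which overlapped at one array.

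Genes with a small SD over the arrays lay below, at and above the share. Igfbp7 had the smallest SD among the 49 named genes of the 51, at 46.8% ± 7.2 (38.6% to 56.3%). Chn1, a Rac GTPase-activating protein, gave 39.5% ± 7.4 and Cmtm8 48.4% ± 7.4, with every array above 25%. Chn1 read 5.85, 5.38 and 6.04 in cones, 7.69, 7.64 and 7.98 with 43 starburst cells, 7.90, 8.06 and 8.18 with 50, and 9.02, 9.13 and 8.99 in pure starburst cells, with a log2 fold over cones of 2.15 ± 0.15 (SE, adjusted p = 2e-09). Slc18a3 gave 48.7% ± 13.3 (35% to 68.6%) and Calb2 62.2% ± 14.6 (45.2% to 82.6%). All 4 given markers were thus above 25% on all 6 arrays.

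The 4 highest positions among the 51 genes were those of Pcp4, Slc10a4, Samd9l and Gpr12. Pcp4 stood at 110% ± 16.8 (97.3% to 139%), Slc10a4 at 85.7% ± 12 (69.8% to 106%), Samd9l at 83.5% ± 33.4 and Gpr12, an orphan receptor, at 65.1% ± 34.2. Samd9l read 4.86, 6.4 and 6.76 with 43 starburst cells and 5.97, 6.5 and 6.33 with 50, against 6.34, 6.03 and 6.93 in pure starburst cells, so that only its first array lay clearly lower. Gpr12 read 4.33, 4.55 and 5.32 with 43, 5.50, 5.10 and 6.05 with 50, and 6.17, 5.46 and 5.63 in pure starburst cells, and the mixture with 50 overlapped the pure group.

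**Figure D5:**
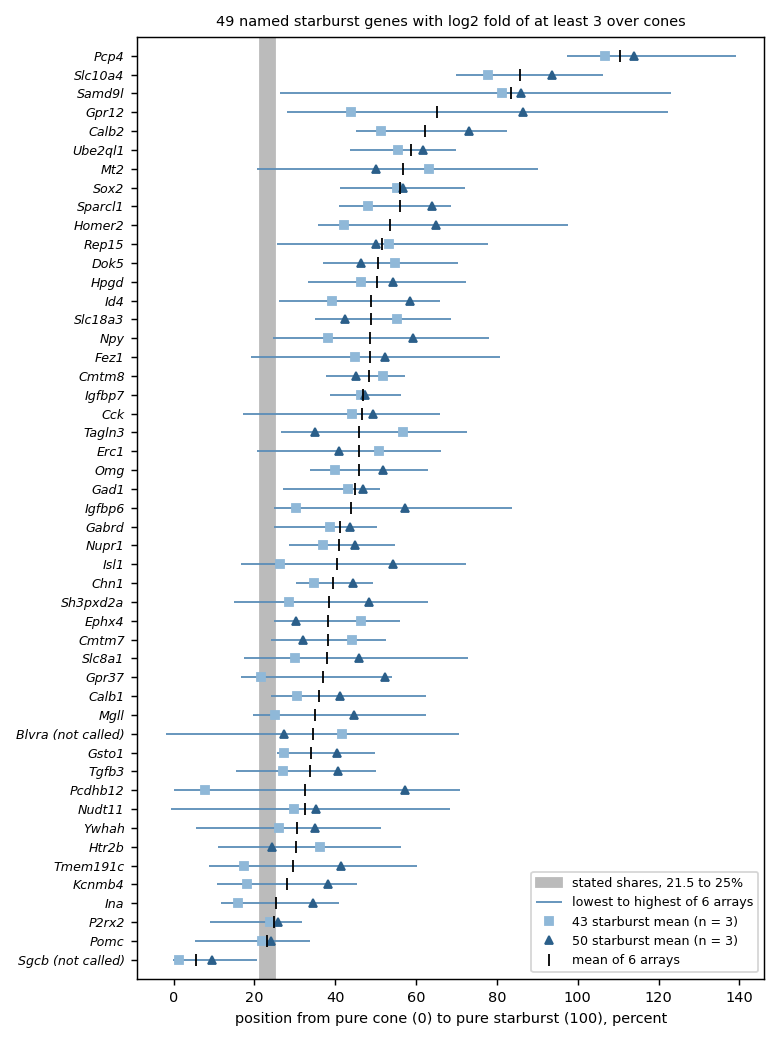
Position of 49 named starburst genes (log2 fold of at least 3 over cones, with 2 genes without a name left out) as the mean of 6 arrays, the means of each mixture and the range, with the stated shares as a grey band. Sgcb (5.47%) lies lowest and Pcp4 (110%) highest, and 23 of the 51 genes have all 6 arrays above the band.

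Some genes with a large fold between the pure groups were not called in the mixtures. Sgcb, the dystrophin-complex protein beta-sarcoglycan, read 8.51, 7.11 and 7.13 in pure starburst cells but 3.58, 4.14 and 4.0 with 43 starburst cells, 5.76, 4.46 and 4.20 with 50, and 4.04, 3.05 and 3.61 in cones. The mixtures overlapped the cones, and the log2 fold was 0.79 ± 0.39 (SE, adjusted p = 0.399), at a position of 5.47% ± 7.6. Fah, an enzyme of tyrosine breakdown, had a log2 fold of 0.58 (adjusted p = 0.691) beside 2.93 in pure starburst cells. Pxmp2, a peroxisomal membrane protein, read 3.55, 3.51 and 3.54 in cones and 3.85 to 4.82 in the mixtures, all higher than cones, yet with a fold of 0.77 (adjusted p = 0.113). Blvra, a biliverdin reductase, ran from 5.23 to 8.05 over the mixture arrays, stood at a position of 34.5% and had a fold of 1.53 (adjusted p = 0.0915, and 0.0163 without the third array of 50 starburst cells, range 0.0163 to 0.375). The AMPA receptor auxiliary subunit Cacng3 stood at a position of 21.6% and had a fold of 1.28 (adjusted p = 0.108, and 0.0236 without the second array of 43 starburst cells, range 0.0236 to 0.562).

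The mixtures with 43 and 50 starburst cells were not told apart gene by gene. No gene was called between them by limma (0% of 12441, 967 at an unadjusted p under 0.05, smallest adjusted p 0.0672), and leaving out 1 array gave at most 7 calls (without the first array of 43 starburst cells). The median difference over the 175 starburst genes was 0.23 on the log2 scale in favour of 50, against 0.01 over all genes tested and 0.22 for the ratio of the cell numbers. Of the 175 genes 127 had a difference above 0, 21 had all 3 arrays of 50 above all 3 of 43 (background 5.93%) and 3 all below (background 5.15%). Cone genes had a median difference of 0.27 in the same direction, with 73 of 101 above 0. The mean position was 7.34 points higher with 50 (exact permutation test, two-sided, p = 0.3, smallest possible 0.1). Gpr37, singled out after its values were seen, was 0.99 higher with 50 starburst cells on the log2 scale (adjusted p = 0.12).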

How the data were processed

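Expression was measured on mouse gene arrays, 1 array per sample of 200 sorted cells. The authors deposited log2 values made with RMA in the R package oligo in R 2.11.1, per the submitters' processing notes, which also name build mm9. Array medians ranged from 2.78 to 2.89, and no array repeated another (0 pairs). Arrays have no read depth, and precision is limited by their number.

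Of 22347 probe sets, 19446 had 1 gene symbol, 735 several and 2166 none in the platform annotation, and the last 2 kinds were left out. For genes with several probe sets the brightest was used. A gene was tested where 3 or more of the 27 arrays exceeded 2.83, the overall median (12441 genes), so a gene could pass through the group where it is high. A single model over the 27 arrays was fitted in limma 3.58.1 (R 4.3.3), with 1 mean per group and 18 residual degrees of freedom. The 2 mixtures had equal weight. Benjamini-Hochberg adjustment ran over all tested genes. Simulated data with known changes and independent noise tested the fit. Python 3.11.15 computed positions and the exact tests.

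The numbers 1 to 3 in the labels mark a repeat sort from different mice for the cone and 50-cell samples. Deviations from group means correlated between -0.02 and 0.25 in 9 pairs of arrays with the same number and between -0.26 and 0.15 in 18 pairs with different numbers. The limma p-values of the main fit do not rest on the spread between these sorts alone. They rest on the spread between arrays within a group, pooled over all groups of the series. These include the pure starburst cells, the other mixtures and the Arc cells.

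Members and 32 gene lists (556 genes, 511 measured, 410 tested) were chosen with earlier results of these data known. The text names the given markers and reporter genes, the 20 largest rises and 10 largest falls without overlap, up to 4 called and 2 bright uncalled members of a list, cell type markers, the extremes of position among genes at least 3 higher in pure starburst cells, and 5 starburst genes that were not called. Genes without a name were only counted.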

Additional observations from a re-analysis of the deposited data

Results flagged for a closer look

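In 9 of 113 named genes, 1 of the 6 mixture arrays stood apart from the others by Dixon's ratio for 6 values; chance gives about 1 in 20 such genes. Homer2 was highest at 8.71 on the third array of 50 starburst cells, with the others at 7.37 to 7.79. Olfr1002 was highest at 2.1 on the third array of 43 starburst cells (others 1.61 to 1.71). Gad1 was lowest at 6.79 on the second array of 43 (others 7.25 to 7.43), as was Ier3, an early response gene, at 4.50 (others 5.25 to 5.58). Cabp1 was lowest at 3.62 on the first array of 50 (others 4.48 to 4.88). Rbfox1, a splicing regulator, was lowest at 4.18 on the first array of 43 (others 4.56 to 4.76), where Tyrp1, a pigment cell gene, was highest at 3.46 (others 2.76 to 2.96). P2rx2 was lowest at 3.42 on the third array of 43 (others 4.23 to 4.47), as was Ndufa4, a respiratory chain subunit, at 9.82 (others 10.1 to 10.2).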

How the results depend on the processing

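Of 113 named genes, 47 were called and 31 of these kept the call in every alternative; 0 results reversed. Without a fold threshold 366 genes were called (245 higher, 121 lower), and with only these 9 arrays 104 were (92 and 12), or 63 with 50 and 51 with 43 starburst cells. Quantile normalization gave 79 lower genes and 1 gene between the mixtures. Leaving out 1 array gave 177 to 247 genes (127 to 181 higher, 34 to 94 lower), 130 to 196 with 50 starburst cells, 128 to 245 with 43, and 0 to 7 between the mixtures. Without the third array of each group, an alternative added after the data were seen, 180 genes were called and 1 between the mixtures. With the replicate number as a block, 205 genes were called, 196 of them shared with the 211, and 157 and 190 for the single mixtures. The call of Ano10 and of Gpn2 was lost there, and Grk1 passed (adjusted p = 0.035). The mean position with 43 starburst cells was 38.4% over genes at least 3 higher in pure starburst cells, 45.6% after quantile normalization and 56.7% on the log2 scale, and 64% on the log2 scale with 50; leaving out 1 array gave 29.7% to 34.8% and 35.2% to 45.1%. The cause of these moves was not tested. With 3 arrays a group and the fold threshold of 1, changes at a log2 fold of 1 were often missed in the simulated data, which had independent noise. There 32% of them were called, and 68% passed on adjusted p alone.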

Other observations

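The splicing regulators gave 1 call among 15 tested genes, a rise, beside 1.29% of all genes that rose. Rbfox1 read 3.12, 3.35 and 3.86 in cones, 4.18, 4.61 and 4.76 with 43 starburst cells and 4.56, 4.67 and 4.71 with 50, with a log2 fold of 1.14 ± 0.26 (SE, limma adjusted p = 0.0152). The call was lost without the first or the second cone array (adjusted p = 0.102 and 0.0737, range over alternatives 0.0105 to 0.102). Celf2, an RNA-binding protein of neurons, was higher by 0.89 (adjusted p = 0.0173), under the fold threshold.

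Of 6 microglia genes tested, 1 rose with 43 starburst cells against cones (Ctss, log2 fold 1.33 ± 0.32, SE, limma adjusted p = 0.0245) and 0 with 50, and 0 were called between the mixtures. Of all genes, 1.02% rose with 43 starburst cells. The summed level of 11 microglia genes was 76.5, 91.2 and 122 with 43 starburst cells and 68.8, 62.6 and 69.0 with 50, against 62.1 to 71.1 in cones. Ctss, a lysosomal protease of microglia, read 3.03, 4.43 and 4.66 with 43, 2.95, 2.54 and 2.95 with 50, and 3.00, 2.50 and 2.63 in cones. Gja1, a gap junction protein of astrocytes and Müller glia, read 4.59, 3.16 and 3.66 with 43, 2.94, 2.87 and 2.93 with 50, and 2.23, 2.66 and 2.72 in cones. Cartpt, a peptide precursor of other amacrine and ganglion cells, read 7.31, 5.46 and 3.83 with 43, 4.21, 4.89 and 3.97 with 50, and 4.71, 4.05 and 7.93 in cones, so that 1 cone array held the highest value.

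Ppia, a cyclophilin often used as a reference gene, was higher on all 6 mixture arrays (10.37 to 10.70) than on the cone arrays (9.92 to 10.01), by 0.57 ± 0.10 (SE, limma adjusted p = 0.0022), under the fold threshold. Eef1a1 differed by 0.05 (adjusted p = 0.921).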
